A study of Mus musculus with 10 samples.

Results

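MHC class II and its loading machinery comprised 10 mouse genes: the invariant chain gene Cd74, the class II chain genes H2-Aa, H2-Ab1 and H2-Eb1, the peptide editor genes H2-DMa, H2-DMb1 and H2-DMb2, the inhibitor genes H2-Oa and H2-Ob, and the transactivator gene Ciita. They were picked by name, not by their values, and all 10 of the 10 were among the 21849 genes of the count table. The arginine-deficient group held 5 tumours from BALB/c mice fed a diet without arginine, and the normal-diet group held 5 tumours from BALB/c mice fed the control diet with the same total calories. In both groups the mice were 5 weeks old at assignment, had eaten their diet for 1 week before CT26 cells were injected under the skin, and gave their tumours on day 20. CT26 is a colon carcinoma line derived from BALB/c, so the tumours grew in hosts of the same strain with their immune system in place. No genotype differed between the diets. RNA came from whole tumours, in which cancer cells, immune cells and stroma are mixed.

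Class II molecules display peptides from endocytosed proteins to CD4 T cells. An alpha and a beta chain assemble in the endoplasmic reticulum with the invariant chain, which blocks the groove and carries the complex to endosomes. There proteases trim the invariant chain to a short remnant called CLIP, DM exchanges CLIP for other peptides, and DO, a DM-like dimer, restrains DM. In mice the A molecule is built from H2-Aa and H2-Ab1, and H2-Eb1 encodes the beta chain of the E molecule. CIITA switches these genes on through factors bound at paired promoter motifs, the X and Y boxes: RFX binds the X box and NF-Y binds the Y box. Dendritic cells, B cells and macrophages are the main class II-bearing cells, and interferon gamma induces CIITA in many other cells.

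Library totals ranged from 12013178 to 31530123 reads counted in genes, and 12929 genes were tested. Arginine-deficient replicate 3, arginine-deficient replicate 4 and normal-diet replicate 4 stood apart in skeletal muscle transcripts, with summed marker levels of 5781, 1653 and 577 CPM (counts scaled to one common library total), against 4.98 to 75.2 CPM in the other 7 libraries. Arginine-deficient replicate 3 also had the highest mitochondrial share of counts, 9.97%, against 1.67% to 4.44% elsewhere. Epithelial markers were low for a carcinoma line: Epcam had 0 to 9 counts per library, and Krt18, a keratin, averaged 11.1 ± 4.16 CPM on the arginine-deficient diet and 15.4 ± 5.08 CPM on the normal diet (mean ± SD of n = 5 each). Macrophage genes were abundant, Csf1r averaging 211 ± 27.1 CPM on the arginine-deficient diet and 224 ± 30.3 CPM on the normal diet (mean ± SD of n = 5 each). Genes wholly inside other genes were often at 0. Of 1450 protein-coding genes whose exons lie wholly inside other genes' bodies, 1238 (85.4%) were at 0 in every library, against 2650 of 13978 (19.0%) with no exonic base inside another gene. With 50% to under 100% of exonic bases inside, 209 of 1152 (18.1%) were at 0. How reads in overlapping genes were counted was not given, and the cause was not tested. A gene at 0 in all libraries is therefore described as listed at 0.

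Of the 10 genes, 8 lie in the class II region of chromosome 17 (mm10). The promoters are shown because the X and Y boxes are what CIITA-dependent genes are known to share, and the choice of genes did not use them. RefSeq promoter entries (GRCm38.p6, from 250 bases before to 50 bases after the annotated start) were matched for 7 of the 10 genes. Cd74, H2-Ab1 and Ciita had none. The X box was searched as CCNAG followed by NN and ACNGATG, with up to 1 mismatch outside the N positions, and the Y box as ATTGG with no mismatch, on both strands, with 30 to 42 bases from the first base of X to the first base of Y, so that the motifs do not overlap. A pair was found for 4 genes, H2-Eb1, H2-DMb1, H2-DMb2 and H2-Ob. Of the 32851 RefSeq promoters of the same length, 19 (0.0578%) held such a pair, while 646 (1.97%) held the X box and 12289 (37.4%) held the Y box. Those with a pair included the class I genes H2-D1, H2-M3, H2-Q4, H2-Q6 and H2-Q7 and the class II gene H2-Eb2. The pair was thus not particular to the 10 genes or to class II. In the following stretches of 80 bases, written 5′ to 3′ on the gene's strand, capitals mark the boxes.
H2-Eb1 (chr17:34305753-34305832, + strand): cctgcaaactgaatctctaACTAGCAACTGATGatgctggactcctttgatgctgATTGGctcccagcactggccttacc
H2-DMb2 (chr17:34145104-34145183, + strand): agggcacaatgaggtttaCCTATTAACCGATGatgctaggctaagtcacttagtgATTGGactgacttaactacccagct
H2-Ob (chr17:34238793-34238872, + strand): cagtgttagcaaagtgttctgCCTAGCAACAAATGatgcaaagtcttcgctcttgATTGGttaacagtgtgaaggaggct
H2-Aa (chr17:34287847-34287926, - strand): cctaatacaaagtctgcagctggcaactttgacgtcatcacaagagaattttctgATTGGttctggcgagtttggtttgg

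In H2-DMb1 the X box read CCTAGTAACTGATG, which matched the searched motif with no mismatch, and the Y box began 37 bases after it, the same spacing as in H2-DMb2. The spacing was 36 bases in H2-Eb1 and 34 bases in H2-Ob, and in these 3 other genes the X box had 1 mismatch. H2-Aa and H2-Oa held a Y box without an X box within 1 mismatch, and H2-DMa held no pair in either of its entries. The 80-base stretch with the H2-DMb1 pair (chr17:34153075-34153154) lies wholly in an annotated untranslated region, inside the gene's span as given below. The H2-DMb2 pair also lies inside the span given below for its gene. A match describes letters, not a bound site, and these letters missing from a window says nothing of the factors there.

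Expressed as CPM per kilobase of exon lying outside other genes' bodies, the genes fell into 3 tiers. Cd74 stood alone at the top with 447 ± 105 on the arginine-deficient diet and 331 ± 120 on the normal diet (mean ± SD of n = 5 each). The chain genes followed. H2-Eb1 had 78.2 ± 23.2 on the arginine-deficient diet and 59.3 ± 20.6 on the normal diet, H2-Ab1 had 61.8 ± 18.3 and 49.2 ± 10.8 on these diets, and H2-Aa had 49.8 ± 13.2 and 38.3 ± 15.9. The editor genes came next: per kilobase, H2-DMa averaged 17.97 ± 2.09 on the arginine-deficient diet and 15.3 ± 2.04 on the normal diet, H2-DMb2 averaged 16.9 ± 3.94 and 14.5 ± 3.26, and H2-DMb1 averaged 15.3 ± 4.87 and 11.1 ± 3.51. Ciita averaged 0.869 ± 0.118 on the arginine-deficient diet and 0.642 ± 0.323 on the normal diet, and H2-Ob averaged 0.212 ± 0.0663 and 0.225 ± 0.130. Across the 10 libraries, neighbours in this order overlapped in range except at 2 steps, from Cd74 (lowest library 149.7) to H2-Eb1 (highest library 111.7) and from H2-DMb1 (lowest library 9.01) to Ciita (highest library 1.14). The order within the chains and within the editors was thus not separated beyond the spread between tumours.

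**Figure D1:**
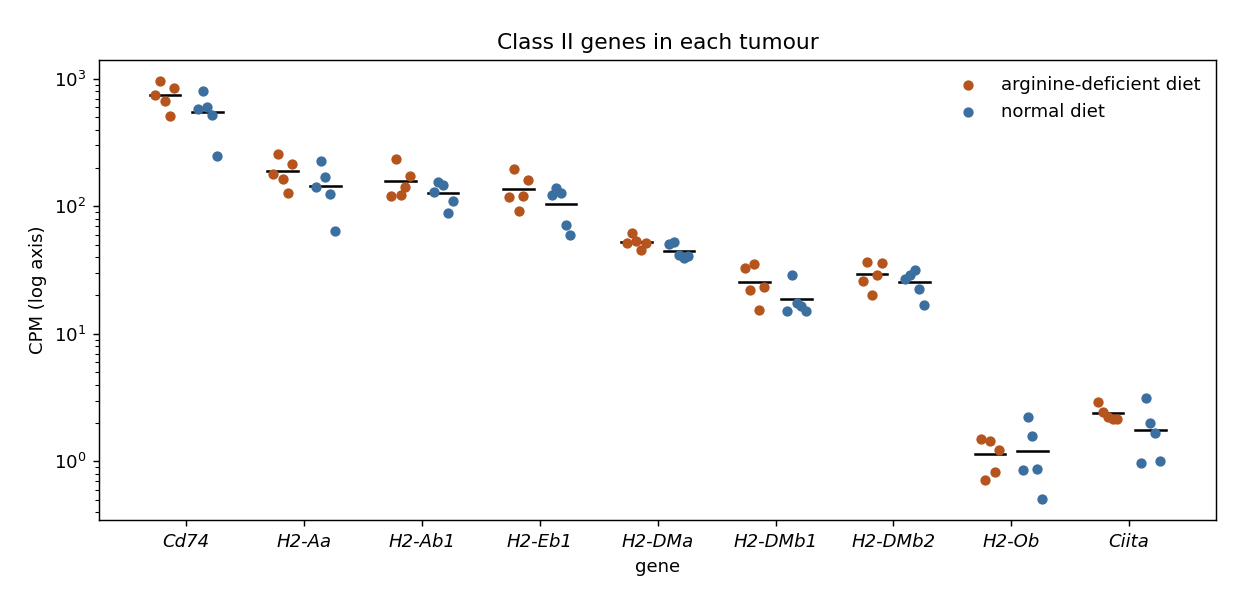
CPM on a log axis for each of the 9 genes with counts, with 1 point per tumour (arginine-deficient diet left, normal diet right, 5 tumours each) and the mean as a black line. The diets overlap for every gene, and the low normal-diet point at 249.6 CPM for Cd74 is replicate 5.

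The comparison of the diets asks whether class II transcripts in the tumour changed when the diet lacked arginine. None of the 9 tested genes passed the threshold of an adjusted p under 0.05 in edgeR's quasi-likelihood test, at which 7 of the 12929 genes (0.0541%), all higher on the arginine-deficient diet, were called. None had an unadjusted p under 0.05 either, where the background was 6.74% of all genes (3.54% higher and 3.19% lower). The libraries of the diets overlapped for every one of the 9, against 1.65% of all tested genes with no overlap. Of the 9 genes, 8 had a log2 fold change above 0, where 50.3% of all tested genes did. Their median log2 fold change, arginine-deficient over normal, was 0.38, against 0.0012 for all tested genes. The genes varied together from tumour to tumour, with 34 of 36 pairs correlating positively, so these 8 values are not 8 independent readings. In bulk tumours, a difference in the number of class II-bearing cells and a difference in RNA per cell cannot be told apart.

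**Figure D2:**
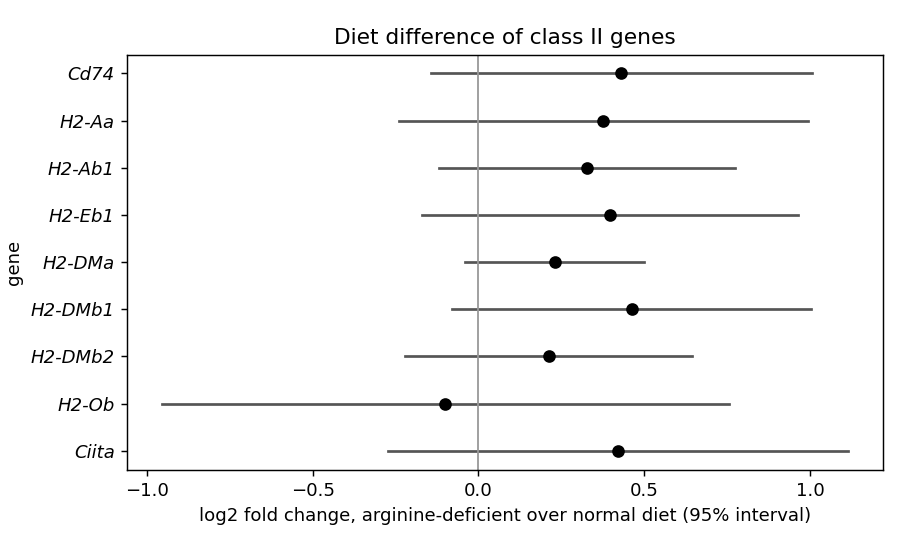
Log2 fold change of each tested gene, arginine-deficient over normal diet, with its 95% interval from edgeR (5 tumours per diet). All 9 intervals include 0, and 8 of the 9 estimates lie to the right of it.

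Cd74 encodes the invariant chain, the chaperone of class II and also a surface receptor for the cytokine MIF. It lies at chr18:60803848-60812652 on the + strand (mm10). Its level was 739.7, 965, 664, 509 and 848 CPM in arginine-deficient replicates 1 to 5, against 584, 807, 598, 524 and 249.6 CPM in normal-diet replicates 1 to 5. One normal-diet tumour lay far below all others, and a second normal-diet tumour lay above 3 of the arginine-deficient ones, so the groups overlapped. With 2967 to 23316 counts per library, counting error was small beside this spread. The log2 fold change was 0.43 (SE 0.26, 95% interval -0.14 to 1.01, edgeR adjusted p = 0.870), and it was 0.25 without normal-diet replicate 5.

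The A molecule's chains are made from H2-Aa (alpha, chr17:34282744-34287823, - strand) and H2-Ab1 (beta, chr17:34257689-34269419, + strand). H2-Aa had 179, 259, 165, 128 and 215 CPM in arginine-deficient replicates 1 to 5, against 141, 229, 169.5, 125 and 64.3 CPM in normal-diet replicates 1 to 5. The same normal-diet tumour, replicate 5, was lowest as for Cd74, and the groups overlapped over most of their range. H2-Aa averaged 189 ± 50.01 CPM on the arginine-deficient diet and 146 ± 60.3 CPM on the normal diet (mean ± SD of n = 5 each), a log2 fold change of 0.38 (SE 0.28, edgeR adjusted p = 0.943). This value depended on single tumours: leaving out normal-diet replicate 5 gave 0.19, leaving out arginine-deficient replicate 2 gave 0.24 and leaving out normal-diet replicate 2 gave 0.60.

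H2-Ab1 had 121, 235, 124, 142.5 and 171 CPM in arginine-deficient replicates 1 to 5, against 130.1, 156.5, 147, 88.0 and 110.2 CPM in normal-diet replicates 1 to 5. Arginine-deficient replicates 2 and 5 were above every normal-diet tumour, and normal-diet replicate 4, not replicate 5, was lowest. The means were 159 ± 47.0 CPM on the arginine-deficient diet and 126 ± 27.8 CPM on the normal diet (mean ± SD of n = 5 each). This gave a log2 fold change of 0.33 (SE 0.21, 95% interval -0.12 to 0.77, edgeR adjusted p = 0.885) and 0.14 without arginine-deficient replicate 2.

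H2-Eb1, the beta chain of the E molecule (chr17:34305867-34316674, + strand), had 119, 197, 92.5, 121 and 159.8 CPM in arginine-deficient replicates 1 to 5, against 123, 140.3, 128, 71.5 and 59.7 CPM in normal-diet replicates 1 to 5. Normal-diet replicates 4 and 5 were below all others, while the remaining 3 normal-diet tumours lay inside the arginine-deficient range. The log2 fold change was 0.40 (SE 0.26, 95% interval -0.17 to 0.96, edgeR adjusted p = 0.899). Leaving out arginine-deficient replicate 2 gave 0.23, and leaving out normal-diet replicate 5 gave 0.25. H2-Eb2, a related beta chain gene, was too low to test with at most 4 reads in any library, and the E alpha chain was not analysed here.

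DM is a dimer of an alpha chain, from H2-DMa, and a beta chain, from H2-DMb1 or H2-DMb2, and it removes CLIP and selects stably bound peptides. H2-DMa (chr17:34119541-34139101, + strand) varied least among the 9 genes: it had 51.5, 62.3, 53.5, 45.3 and 51.4 CPM in arginine-deficient replicates 1 to 5, against 50.8, 52.2, 41.4, 39.5 and 41.1 CPM in normal-diet replicates 1 to 5. All 5 arginine-deficient tumours were above the normal-diet median and 2 of them were above every normal-diet tumour. Its log2 fold change was 0.23 (SE 0.12, 95% interval -0.04 to 0.50, edgeR adjusted p = 0.826). Of its exonic bases, 14.8% lie inside another gene's body, and its neighbour there is Brd2.

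H2-DMb1 (chr17:34153072-34160230, + strand) had 32.5, 21.9, 35.3, 15.3 and 23.2 CPM in arginine-deficient replicates 1 to 5, against 15.2, 29.1, 17.3, 16.4 and 15.1 CPM in normal-diet replicates 1 to 5. All normal-diet tumours but replicate 2 were close together at 15.1 to 17.3 CPM, with replicate 2 well above them, while the arginine-deficient tumours were spread from 15.3 to 35.3 CPM. The log2 fold change, 0.46 (SE 0.25, 95% interval -0.08 to 1.004, edgeR adjusted p = 0.826), was the highest of the 9 estimates. H2-DMb2 (chr17:34143307-34151555, + strand) had 26.1, 36.3, 20.2, 28.7 and 36.1 CPM in arginine-deficient replicates 1 to 5, against 27.0, 28.8, 31.4, 22.7 and 16.9 CPM in normal-diet replicates 1 to 5. Here arginine-deficient replicate 3, the highest for H2-DMb1, was the second lowest of the 10, and the diets overlapped almost throughout. The log2 fold change of H2-DMb2 was 0.21 (SE 0.20, edgeR adjusted p = 0.968), and it was 0.10 without normal-diet replicate 5, 0.13 without arginine-deficient replicate 2 or 5, and 0.33 without arginine-deficient replicate 3.

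H2-DMb1 and H2-DMb2 are near copies of each other: the transcripts H2-DMb1-201 (1404 bases) and H2-DMb2-201 (1424 bases) were 93.9% identical over 1255 aligned bases. Of the 50-base windows of H2-DMb1, 27.2% also occur unchanged in H2-DMb2, and 13.7% of its 100-base windows do. Reads from such stretches cannot be assigned to one gene, so the split between the 2 genes is uncertain. Their sum was 58.6, 58.2, 55.5, 44.0 and 59.3 CPM in arginine-deficient replicates 1 to 5, against 42.1, 57.9, 48.7, 39.1 and 32.05 CPM in normal-diet replicates 1 to 5. The sum averaged 55.1 ± 6.39 CPM on the arginine-deficient diet and 44.0 ± 9.82 CPM on the normal diet (mean ± SD of n = 5 each), and it was not tested.

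DO, formed from H2-Oa and H2-Ob, is known mainly from B cells, thymic epithelium and some dendritic cells. H2-Oa (chr17:34092340-34095234, + strand) was listed at 0 in all 10 libraries. Every one of its 1407 exonic bases lies inside other genes' bodies, so this 0 does not bear on whether the gene was expressed. H2-Ob (chr17:34238903-34254414, + strand) was counted, with 6 to 48 reads per library. It had 1.49, 0.719, 1.46, 0.820 and 1.23 CPM in arginine-deficient replicates 1 to 5, against 0.863, 2.25, 1.57, 0.869 and 0.505 CPM in normal-diet replicates 1 to 5. Both the highest and the lowest tumour were on the normal diet. H2-Ob was the one gene of the 9 with an estimate below 0, a log2 fold change of -0.10 (SE 0.39, 95% interval -0.96 to 0.75, edgeR adjusted p = 0.998). Leaving out normal-diet replicate 2 turned it to 0.24, so no direction can be given.

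Ciita (chr16:10480059-10528418, + strand), the transactivator on which constitutive and induced class II transcription depends, had 12 to 92 counts per library, and 71.2% of its exonic bases lie inside other genes' bodies. Its level was 2.92, 2.46, 2.22, 2.16 and 2.16 CPM in arginine-deficient replicates 1 to 5, against 0.971, 3.13, 2.00, 1.69 and 1.01 CPM in normal-diet replicates 1 to 5. The arginine-deficient tumours were close together and all above the normal-diet median, but normal-diet replicate 2 was above all of them. Ciita averaged 2.38 ± 0.323 CPM on the arginine-deficient diet and 1.76 ± 0.886 CPM on the normal diet (mean ± SD of n = 5 each). Ciita's log2 fold change was 0.42 (SE 0.32, 95% interval -0.27 to 1.12, edgeR adjusted p = 0.943), with 0.73 without normal-diet replicate 2 and 0.27 without normal-diet replicate 1.

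Summed over the genes, class II transcripts took 1273, 1779, 1157, 993.2 and 1508 CPM in arginine-deficient replicates 1 to 5, against 1073, 1447, 1137, 889.5 and 558.4 CPM in normal-diet replicates 1 to 5. Most of this sum is Cd74. Arginine-deficient replicate 2 was the highest of the 10 tumours for 6 of the 9 genes, and normal-diet replicate 5, the library with the lowest total count, was the lowest for 6. The exceptions at the top were H2-Ob and Ciita, highest in normal-diet replicate 2, and H2-DMb1, highest in arginine-deficient replicate 3. Leaving out arginine-deficient replicate 2 lowered the median log2 fold change of the 9 genes to 0.23, and leaving out normal-diet replicate 5 to 0.25. Leaving out normal-diet replicate 2 brought it to 0.53, with 5 of the 9 genes at an unadjusted p under 0.05 and none past the adjusted threshold in edgeR. Every other set of 9 tumours had 0 or 1 gene under that unadjusted p. The share of all genes under it without normal-diet replicate 2 is not given, so the 5 genes have no background to compare with.

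**Figure D3:**
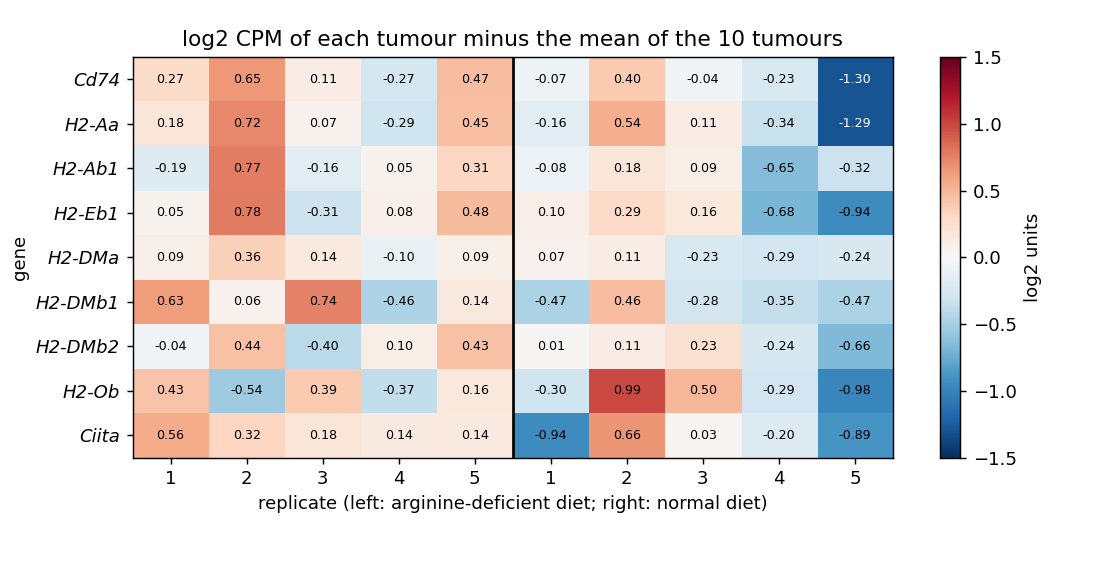
Heat map of log2 CPM of each gene in each tumour minus that gene's mean over the 10 tumours (rows are genes, columns are replicates 1 to 5 of the arginine-deficient diet on the left and of the normal diet on the right). Normal-diet replicate 5 is low across most rows, reaching -1.30 for Cd74 and -0.98 for H2-Ob. Arginine-deficient replicate 2 is high for most genes, but is at 0.06 for H2-DMb1 and -0.54 for H2-Ob.

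Ratios within a tumour ask whether the parts of the machinery shifted against each other, and do not depend on library size. Cd74 counts were 6.11, 4.11, 5.37, 3.57 and 4.95 times H2-Ab1 counts in arginine-deficient replicates 1 to 5, against 4.49, 5.15, 4.06, 5.95 and 2.27 times in normal-diet replicates 1 to 5. H2-Aa counts were 1.48, 1.10, 1.33, 0.899 and 1.26 times H2-Ab1 counts in the arginine-deficient tumours, against 1.08, 1.46, 1.15, 1.42 and 0.583 times in the normal-diet tumours. H2-Eb1 counts were 0.982, 0.839, 0.748, 0.852 and 0.933 times H2-Ab1 counts in the arginine-deficient tumours, against 0.947, 0.897, 0.871, 0.812 and 0.542 times in the normal-diet tumours. In all 3 ratios normal-diet replicate 5 was the lowest of the 10. There H2-Ab1 deviated by -0.32 log2 units from its mean over the 10 tumours, while Cd74 deviated by -1.30, H2-Aa by -1.29 and H2-Eb1 by -0.94. The mean log2 ratio differed between the diets by 0.18 for Cd74, by 0.14 for H2-Aa and by 0.12 for H2-Eb1 (arginine-deficient minus normal), with exact two-sided permutation p of 0.587, 0.667 and 0.603.

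For the inhibitor against the editor, the log2 ratio of H2-Ob to H2-DMb1 counts was -4.46 ± 0.287 on the arginine-deficient diet and -4.04 ± 0.522 on the normal diet (mean ± SD of n = 5 each). The difference of -0.41 had an exact permutation p of 0.159 and an adjusted p of 0.794 over the 5 ratios. It was -0.26 without normal-diet replicate 3, and -0.60 without normal-diet replicate 5 (exact permutation p = 0.0397, adjusted p = 0.198). For the regulator against a target, Ciita to Cd74, the difference was 0.06 with an exact permutation p of 0.841. None of the 5 ratios passed, where the smallest p this design allows is 0.00794. The ratio of H2-Oa to H2-DMa could not be computed because H2-Oa was listed at 0.

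To see how the genes varied beyond the diet, log2 CPM values were correlated across the 10 tumours with the diet means removed. With H2-Ab1, taken as the anchor, 2 of 8 relations passed a Benjamini-Hochberg adjusted p of 0.05 in a permutation test. The resamples shuffled the values over all tumours regardless of diet and made no allowance for the removed diet means. The permutation p of these and all later correlations with diet means removed are thus somewhat too small. Calls close to the threshold are therefore uncertain. For H2-Eb1 Pearson's r was 0.87 (Spearman's rho 0.88, permutation p = 0.00157, adjusted p = 0.0126), and r was 0.85 once arginine-deficient replicate 2 and normal-diet replicate 4 were left out, the 2 tumours farthest from the median of H2-Ab1. For H2-DMb2 r was 0.76 (rho 0.82, permutation p = 0.0109, adjusted p = 0.0437), and 0.82 without these 2 tumours. The r of H2-DMa was 0.65, of H2-Aa 0.64 and of Cd74 0.55, with permutation p of 0.0456, 0.0447 and 0.1003 and adjusted p of 0.0912, 0.0912 and 0.161. By rank, H2-Aa (rho 0.77) and Cd74 (rho 0.76) each had a permutation p adjusted to 0.0308. Ciita (r 0.25), H2-Ob (r 0.12) and H2-DMb1 (r -0.03) had permutation p of 0.484, 0.749 and 0.942. Adjusted p changed sides with the tumours used: the relation with H2-DMb2 missed the threshold in 8 of the 10 sets of 9 tumours.

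Over all 36 pairs, 34 values of r were positive, with a median of 0.64, and 10 passed the adjusted permutation p. The tightest pair was Cd74 and H2-Aa, with r 0.99 (rho 0.99, permutation p = 1e-05, the smallest that 100000 resamples can give, adjusted p = 0.00036) and r 0.97 with arginine-deficient replicate 4 and normal-diet replicate 5 left out. These 2 genes lie on different chromosomes, 18 and 17. H2-DMb1 and H2-DMb2, which lie beside each other on chromosome 17 and have the same box spacing, had r -0.12 (rho 0.10, permutation p = 0.733), and r 0.02 with arginine-deficient replicate 3 and normal-diet replicate 2 left out. H2-DMb1 went instead with H2-Ob (r 0.78, rho 0.89, permutation p = 0.00893, adjusted p = 0.0402), where r was 0.59 without the same 2 tumours. The call was lost in 6 of the 10 sets of 9 tumours, with an adjusted permutation p of 0.0664, 0.0552 and 0.0572 on leaving out arginine-deficient replicate 1, 2 or 5 and of 0.0584, 0.251 and 0.0650 on leaving out normal-diet replicate 1, 2 or 4. It was also lost without removing diet means and without the muscle-rich libraries (adjusted permutation p of 0.0639 and 0.0586). Ciita went with H2-Ob (r 0.79, rho 0.77, permutation p = 0.00634, adjusted p = 0.03405), where r was 0.46 without normal-diet replicates 2 and 5. For H2-DMb1 with Ciita r was 0.63 (permutation p = 0.0484, adjusted p = 0.0957) and rho 0.76 (permutation p adjusted to 0.0427). There r was 0.49 without arginine-deficient replicate 3 and normal-diet replicate 2. The tumours share depth and composition effects across genes, which these correlations contain.

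**Figure D4:**
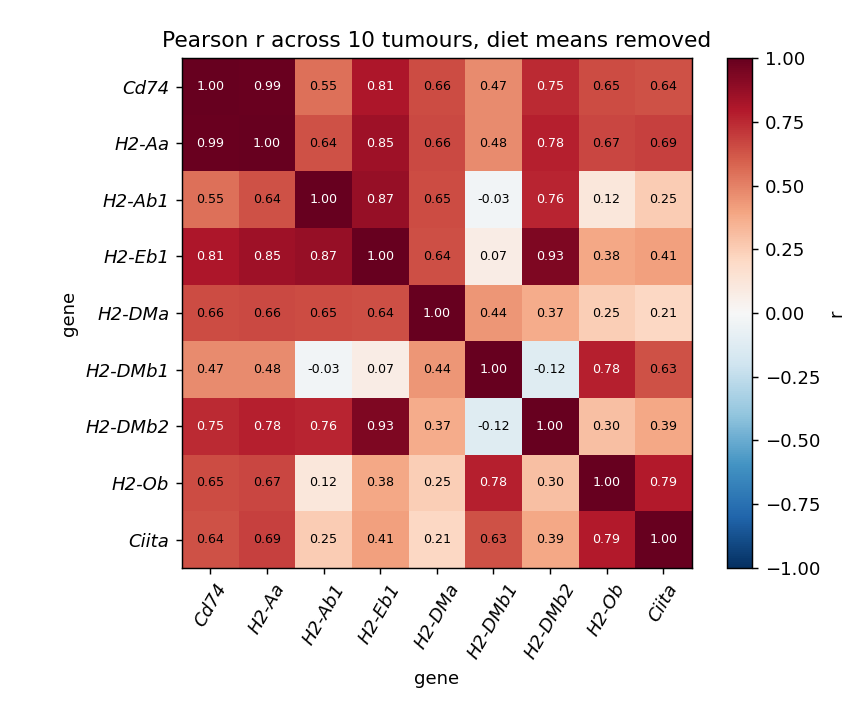
Pearson's r of log2 CPM between each pair of the 9 genes across 10 tumours, diet means removed, as a coloured grid with genes on both axes. Values run from -0.12 for H2-DMb1 with H2-DMb2 to 0.99 for Cd74 with H2-Aa.

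The genes were also compared with a measure of each library, its GC slope. Each library's GC slope is how much its genes' log2 CPM, relative to the mean of the 10 libraries, changed per 10 percentage points of transcript GC content, fitted together with gene body length. The slope comes from the expression values themselves, and what sets it was not tested. It was 0.09, 0.15, -0.52, 0.18 and 0.11 in arginine-deficient replicates 1 to 5, against 0.16, -0.33, 0.04, -0.23 and 0.37 in normal-diet replicates 1 to 5. The 2 libraries with the lowest slopes, arginine-deficient replicate 3 and normal-diet replicate 2, were those with the highest H2-DMb1 of their diet. Across the 10 tumours, diet means removed, H2-DMb1 against the slope had rho -0.89 (permutation p = 0.00122, adjusted p = 0.0549 over 45 relations of 9 genes with 5 library measures) and r -0.71 (permutation p = 0.0206, adjusted p = 0.349). Without these 2 tumours r was -0.26, so the linear relation rested on them. H2-Ob had r -0.65 and rho -0.79 with the slope (permutation p = 0.0445 and 0.00888, adjusted p = 0.349 and 0.1998), and r -0.45 without the same 2 tumours. H2-DMb2 had r 0.16 and H2-Ab1 r 0.21, with permutation p of 0.674 and 0.549. With the GC and gene length slopes as covariates the log2 fold change of H2-DMb1 was 0.47 (unadjusted p = 0.0306, edgeR adjusted p = 0.256), and no gene of the 9 was called. The part of GC content in the values of H2-DMb1 was not tested further.

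**Figure D5:**
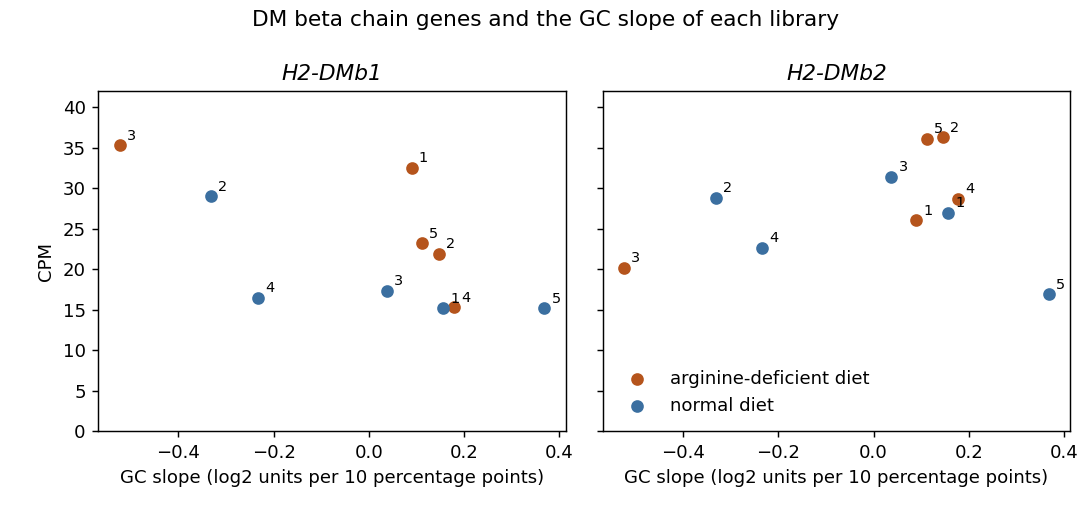
CPM of H2-DMb1 (left panel) and H2-DMb2 (right panel) against the GC slope of each library, with 1 point per tumour coloured by diet and labelled by replicate number. For H2-DMb1 the points with the lowest slopes, arginine-deficient replicate 3 and normal-diet replicate 2, are the highest of their diet, while for H2-DMb2 arginine-deficient replicate 3 is the lowest of its diet.

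Outside the 10 genes, those most like H2-Ab1 across the 10 tumours (log2 CPM, diet means removed, 11129 genes with a mean of at least 2 CPM ranked) were Prex1 (r 0.94), Trpm2 (r 0.91), Plcg2 (r 0.89), Smpdl3b (r 0.86), Sept1 (r 0.85), Fut4 (r 0.85), Npas1 (r 0.83), C1s1 (r 0.83), Dnajb13 (r 0.83) and Zfp27 (r 0.82). H2-Eb1, at r 0.87, lies within their range. These are descriptions from ranking many genes, given without a test. None of these 10 passed the diet comparison, their log2 fold changes lying between -0.40 for Dnajb13 and 0.30 for Npas1 (edgeR adjusted p of 0.806 and 0.914).

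The factors that CIITA works with, and those that set its level, did not pass in edgeR either. Of 11 promoter-binding factors and cofactors tested, none had an unadjusted p under 0.05, 6 had a log2 fold change above 0 and the median was 0.02. Rfx5, the RFX subunit that binds the X box, averaged 9.52 ± 2.32 CPM on the arginine-deficient diet and 11.3 ± 0.950 CPM on the normal diet (mean ± SD of n = 5 each), a log2 fold change of -0.25 (SE 0.19). Rfxank, its partner, had -0.33 (SE 0.22), and the NF-Y subunit genes Nfya and Nfyb had 0.15 (SE 0.10) and 0.16 (SE 0.11). Of 15 tested inducers and repressors of Ciita, none had an unadjusted p under 0.05, 9 were above 0, and the median was 0.02. Prdm1, a repressor of Ciita in plasma cells, had 0.27 (SE 0.13), Irf4 had 0.39 (SE 0.34) and Spi1, the PU.1 factor of myeloid cells, had -0.20 (SE 0.20). Ifng was too low to test at 2 to 24 reads in each library, and Irf8 was listed at 0 in all libraries.

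None of the genes that prepare or carry class II cargo was called in edgeR. Of 11 endosomal proteases, 9 were above 0 and the median log2 fold change was 0.06. Ctss, cathepsin S, which cuts the invariant chain in antigen-presenting cells, averaged 373 ± 43.2 CPM on the arginine-deficient diet and 352 ± 36.3 CPM on the normal diet (mean ± SD of n = 5 each), a log2 fold change of 0.08 (SE 0.12, edgeR adjusted p = 0.998). Napsa, an aspartic protease, had the one unadjusted p under 0.05 in the list, at 0.77 (SE 0.30, edgeR adjusted p = 0.638), with 88.35% of its exonic bases inside other genes. Of 10 turnover factors and tetraspanins none had an unadjusted p under 0.05 and the median was 0.05. Cd83, which protects class II from degradation, had 0.39 (SE 0.25). Among 4 tested CD74 ligands and co-receptors, none had an unadjusted p under 0.05, and Mif, the ligand, had 0.21 (SE 0.32). The 5 class I pathway genes inside or beside the class II region, which share its position, had a median of -0.0043 with 2 above 0, Psmb9, an immunoproteasome subunit, being at -0.34 (SE 0.20) and Tap2, a peptide transporter, at 0.11 (SE 0.19).

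On the side that reads class II, 12 genes of a CD4 T cell list were tested and none was called, 9 were above 0 and the median log2 fold change was 0.35. The list includes genes shared with other T cells, such as those of the CD3 complex, so it is not specific to CD4 T cells. The summed level of the list was 34.0 to 67.5 CPM in arginine-deficient tumours, against 21.03 to 48.5 CPM in normal-diet tumours. Cd4 itself averaged 4.14 ± 0.915 CPM on the arginine-deficient diet and 3.16 ± 1.43 CPM on the normal diet (mean ± SD of n = 5 each), its log2 fold change being 0.38 (SE 0.31). Ctla4, an inhibitory receptor, had 0.71 (SE 0.28, edgeR adjusted p = 0.647), and Foxp3, the factor of regulatory T cells, was listed at 0. The 3 genes of the list below 0 were Lag3 at -0.17 (SE 0.23), Tbx21 at -0.10 (SE 0.34) and Cd3d at -0.08 (SE 0.25). Of 9 costimulatory and adhesion ligands none was called, 7 were above 0 and the median was 0.19. Pdcd1lg2, which encodes PD-L2, averaged 2.12 ± 0.937 CPM on the arginine-deficient diet and 0.728 ± 0.341 CPM on the normal diet (mean ± SD of n = 5 each). Its libraries did not overlap between the diets, and the log2 fold change of 1.49 (SE 0.41) had an edgeR adjusted p of 0.362.

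Markers of the cells that can carry class II are given beside the class II values, and their part in those values was not tested. Of 11 tested macrophage markers, none was called and 3 were above 0, with a median log2 fold change of -0.03. Their summed level was 1338 to 1734 CPM in arginine-deficient tumours, against 1165 to 1762 CPM in normal-diet tumours. Adgre1, the F4/80 antigen, had -0.03 (SE 0.20), and Itgam was listed at 0. Across the 10 tumours the macrophage sum had r 0.62 with H2-Ab1 (permutation p = 0.0546) and r -0.04 with Cd74, and no relation of the 45 passed after adjustment.

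Among dendritic cell lists, the type 2 list had 7 tested markers, 4 above 0, a median of 0.23 and a summed level of 217.6 to 284.6 CPM in arginine-deficient tumours, against 194.3 to 237.2 CPM in normal-diet tumours. Most of this sum was Sirpa, which averaged 197 ± 25.8 CPM on the arginine-deficient diet and 167 ± 12.1 CPM on the normal diet. In 3 of the list's genes the unadjusted p was under 0.05 without passing the edgeR adjusted threshold: the lectin genes Mgl2, at 1.07 (SE 0.30, edgeR adjusted p = 0.369), and Clec10a, at 0.76 (SE 0.24, edgeR adjusted p = 0.466), both also expressed by macrophages, and Cd209a, at 0.92 (SE 0.42, edgeR adjusted p = 0.737). The other markers of the list went the other way: Zbtb46 had -0.29 (SE 0.19), Itgax -0.28 (SE 0.32) and Flt3 -0.20 (SE 0.33). The list as a whole thus had no single direction. The 6 type 1 markers had a median of 0.05, the 8 markers of migratory cells 0.03, and the 5 monocyte markers 0.03, with no unadjusted p under 0.05 in these 3 lists. Of the plasmacytoid list 3 genes were tested, all above 0 with a median of 0.47, none with an unadjusted p under 0.05. The summed level of that list, which includes the untested Ccr9, was 2.94 to 9.21 CPM in arginine-deficient tumours, against 2.44 to 4.26 CPM in normal-diet tumours.

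B cell transcripts, the usual partners of H2-Ob, were near the limit of counting. Ms4a1 was listed at 0, and 4 of 10 markers were tested. Cd22 had a log2 fold change of 0.67 (SE 0.25, edgeR adjusted p = 0.621), while Cr2 had -0.49 (SE 0.38), Cd79a -0.38 (SE 0.39) and Cd79b -0.08 (SE 0.46). The summed level was 7.81 to 12.5 CPM in arginine-deficient tumours, against 7.46 to 10.1 CPM in normal-diet tumours. Of the skin list only Krt10 was tested, at 0.30 (SE 0.19), so Langerhans cells could not be followed. Among lists of cells not known for class II at rest, the 5 neutrophil markers had a median log2 fold change of -0.15, the 4 epithelial markers 0.19, the 8 endothelial markers -0.19, the 7 fibroblast markers -0.05 and the 7 muscle markers 3.57. The 3 muscle-rich libraries had class II sums of 1157 and 993.2 CPM (arginine-deficient replicates 3 and 4) and 889.5 CPM (normal-diet replicate 4). Arginine-deficient replicate 3 also had the highest H2-DMb1 of the 10, 35.3 CPM. Without these 3 libraries the median log2 fold change of the 9 class II genes was 0.44, with 8 above 0 and none called in edgeR. The part of muscle content in the class II values was not tested.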

How the data were processed

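Per the labels' protocols, TRIzol was used to extract total RNA from 10 whole tumours and libraries were run on Illumina instruments. The authors deposited raw counts per gene, not normalized, 1 column per library. Per the submitters' processing notes, the tools were FastQC, STAR and featureCounts and the build mm10. Versions, strand setting and handling of overlapping genes were not given in the sources used here. BALB/c mice carry another H2 haplotype than the C57BL/6J reference, and its effect on these counts was not tested. Columns were matched to samples by the number in the sample descriptions, and titles starting Arg or Control were taken to mean the 2 diets of the design text.

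Symbols and positions came from GENCODE M21 (21379 identifiers by version, 437 by another version, 33 without a symbol). No libraries agreed within sampling noise (lowest chi-square per degree of freedom 16.7). Libraries were taken as separate mice; otherwise p-values measure only the spread between samples. edgeR 4.0.16 in R 4.3.3 (quasi-likelihood test, TMM, filterByExpr with a minimum count of 10 and total of 15) was fitted with diet as its only term to 12929 genes holding 99.9% of counts, with Benjamini-Hochberg adjustment over all of them and a threshold of 0.05. Totals of 12013178 to 31530123 make counting error small for all but H2-Ob and Ciita, and the biological coefficient of variation was 26.5%. CPM used TMM-scaled totals, except the summed skeletal muscle marker levels of each library, which used the raw totals. Ratios had 0.5 added to each count and exact permutation tests. Correlations used 100000 resamples of log2 CPM (prior count 2), shuffled over all tumours used with no allowance for the removed diet means. The fit was tested on simulated data.

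All 10 members are named; of each other list, up to 4 tested genes with the smallest p, those at 0 that define a cell type, and the 10 genes most correlated with H2-Ab1. Other listed genes named (Epcam, Csf1r, Adgre1, Cd4 and Ifng) were chosen for what they are known for, after their values were seen. The members and lists were chosen with earlier results of these data known. Alternatives were other size factors and filters, DESeq2 1.42.0, limma 3.58.1 voom, the replicate number as a block, library covariates and leaving out libraries. The correlations over all 36 pairs and with library measures were added after the data were seen. Some items are not reported here.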

Additional observations from a re-analysis of the deposited data

Results flagged for a closer look

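In 28 groups of 5 values (each gene's CPM and each ratio in each diet), the highest or the lowest sample was compared with the rest by Dixon's test, which by chance marks about 1 group in 20. It marked 3. H2-DMb1 in normal-diet replicate 2 was 29.1 CPM, where the other normal-diet tumours had 15.1 to 17.3 CPM. This library also had the lowest GC slope of its diet, and the part of that slope was not tested. The log2 ratio of H2-Eb1 to H2-Ab1 in normal-diet replicate 5 was -0.88, where the other normal-diet tumours had -0.30 to -0.08. The log2 ratio of Ciita to Cd74 in normal-diet replicate 1 was -9.19, where the other normal-diet tumours had -8.26 to -7.89.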

How the results depend on the processing

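The count of 7 called genes was 131 with DESeq2 (69 higher, 62 lower), 373 with limma voom (205 higher, 168 lower), 68 with GC and length slopes as covariates (35 higher, 33 lower), 18 without the 3 muscle-rich libraries and 1 with the replicate block; the cause was not tested. Leaving out 1 library each gave 0 to 16 (0 without normal-diet replicate 1 or 3, 16 without arginine-deficient replicate 3, 15 without normal-diet replicate 5, and 2 on leaving out normal-diet replicate 2 or any of arginine-deficient replicates 1, 2 and 5). None of the 9 class II genes was called under any of the 19 alternatives, the lowest adjusted p being 0.185 for H2-DMa in limma voom. Of them, 8 kept a positive log2 fold change under all 19: Cd74 0.25 to 0.61, H2-Aa 0.19 to 0.60, H2-Ab1 0.14 to 0.42, H2-Eb1 0.23 to 0.53, H2-DMa 0.16 to 0.29, H2-DMb1 0.32 to 0.68, H2-DMb2 0.10 to 0.33 and Ciita 0.27 to 0.73. H2-Ob turned to 0.0045 with the replicate block and 0.047 with the covariates, and spanned -0.27 to 0.24 on leaving out 1 library (0.02 and 0.0018 without arginine-deficient replicate 2 and 4, 0.24 and 0.008 without normal-diet replicate 2 and 3).

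Replicate numbers pair no samples by the labels, and the correlations of same-numbered deviations were 0.13, -0.35, -0.01, 0.13 and 0.18.

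Leaving out 1 library, the log2 ratio differences spanned -0.023 to 0.18 for H2-Eb1 to H2-Ab1, -0.082 to 0.25 for H2-Aa to H2-Ab1 and -0.038 to 0.31 for Cd74 to H2-Ab1, each below 0 without normal-diet replicate 5, -0.60 to -0.26 for H2-Ob to H2-DMb1, and -0.16 to 0.16 for Ciita to Cd74, which was -0.068 without the muscle-rich libraries. Correlations with H2-Ab1 spanned -0.34 to 0.16 for H2-DMb1 (0.19 without removing diet means), 0.73 to 0.84 for H2-DMb2, 0.85 to 0.96 for H2-Eb1, -0.16 to 0.49 for H2-Ob, -0.0295 to 0.38 for Ciita and 0.57 to 0.79 for H2-Aa, which passed without normal-diet replicate 5. Without removing diet means H2-DMa passed at 0.73. In the 7 libraries left without the muscle-rich ones, H2-Eb1 at 0.81 and H2-DMb2 at 0.77 no longer passed. Among the pairs, H2-DMb1 with H2-DMb2 was 0.058 without removing diet means, 0.094 without the muscle-rich libraries and 0.20 without arginine-deficient replicate 3.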
